A study of Mus musculus with 8 samples.

Results

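Pools of 2-cell mouse embryos sired by males carrying a KDM1A transgene were compared with pools sired by C57BL/6 males. The members were taken by the genotype label of each array, which put 3 arrays in the KDM1A TG group and 3 in the C57BL/6 group, 6 of the 8 arrays in the series. The other 2 arrays came from embryos of nonTG sires, the non-transgenic littermates, and are no group of this comparison. They enter the choice of each gene's probeset, the minimum level and the shared estimate of spread, and their levels are given beside a few results. The comparison was described across every gene whose probeset carries exactly 1 gene symbol, with the brightest probeset standing for the gene: 14995 genes in all, of which 11444 exceeded a minimum mean level of 2.07 on the log2 scale and were tested.

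All dams of both groups were C57BL/6 females given 5 IU of eCG and of hCG, and embryos were flushed from the oviducts between 46 and 48 h after hCG. A pool held 26 embryos on average, and its total RNA was amplified, labelled with biotin and hybridised to 1 Affymetrix array. The titles write TG3 and nonTG3 and do not explain the number in these names. The promoter driving the transgene, the number of founders and the number of sires per pool are not stated in the labels. A pool is named here after its sire, since no label gives the genotype of its embryos. Nothing in the labels says that pools came from separate males or matings, so p-values rest on how far these pools differ from one another, and that may be technical. The test also draws each gene's spread toward a value common to all genes, so a p-value reflects that common spread more than the gene's own. The study concerns histone methylation in developing sperm, and this comparison asks how RNA in the next generation's 2-cell embryo differs between transgenic and control fathers.

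KDM1A, also called LSD1, is a flavin-dependent demethylase that removes mono- and dimethyl marks from lysine 4 of histone H3, usually within a complex with RCOR1 and the deacetylases HDAC1 and HDAC2. A 2-cell mouse embryo carries RNA loaded by the oocyte alongside the first large wave of transcription from its own genome, while maternal transcripts are being degraded. A pool flushed from the oviduct may also carry RNA from maternal cells of that organ.

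The arrays carried abundant oocyte and embryo RNA in both groups. Dppa3, a maternal factor that protects the zygotic genome from demethylation, stood at log2 levels of 9.67, 8.86 and 10.18 in C57BL/6 replicates 1 to 3 and of 8.93, 10.01 and 8.87 in KDM1A TG replicates 1 to 3. The oocyte gene Oosp1 lay between 7.30 and 8.34 on the same 6 arrays. The Kdm1a symbol had 0 probesets, so the transgene could not be used to check the labels. Array medians lay between 2.73 and 2.86, but the interquartile range was 2.38 and 2.60 in KDM1A TG replicates 1 and 3 against 1.91 to 2.09 on the other 4 arrays. Correlations across probesets between the 9 pairs of arrays from different groups (0.913 to 0.941) fell inside the range of the 6 pairs from the same group (0.910 to 0.967).

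**Figure D1:**
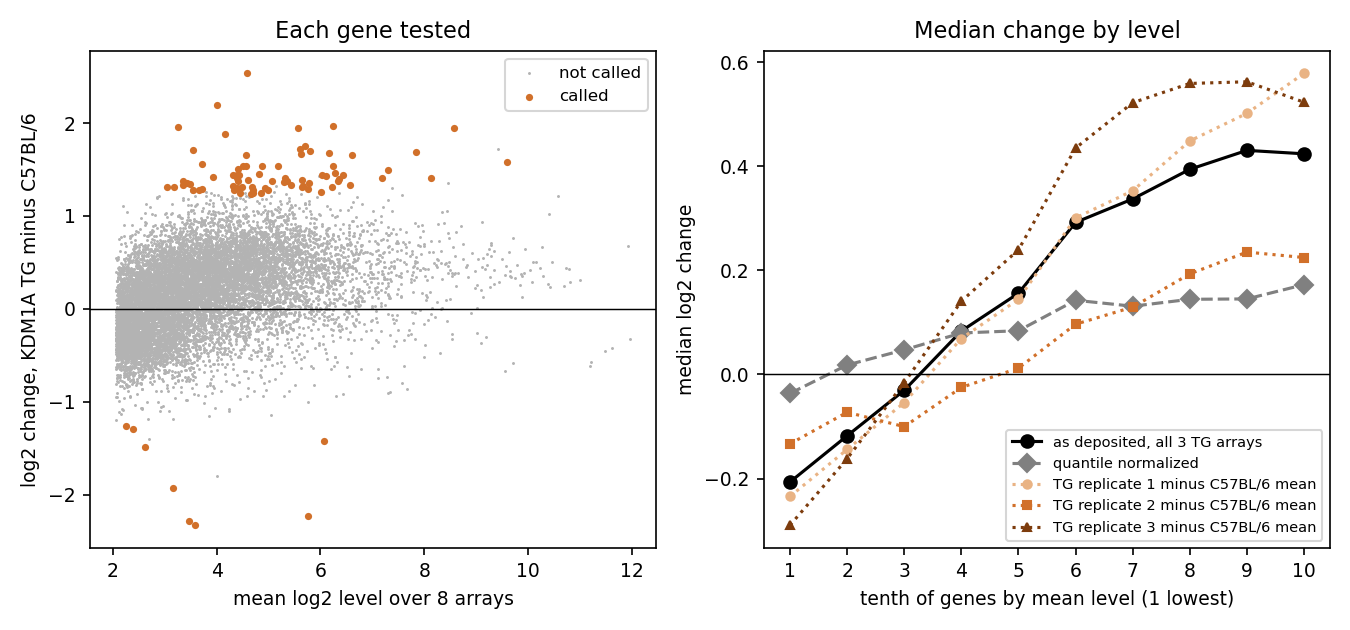
Left, the log2 change (KDM1A TG minus C57BL/6) of each gene tested against its mean log2 level over 8 arrays, with called genes in orange; right, the median log2 change in each of 10 bins of genes ordered by level, as deposited, after quantile normalization, and for each KDM1A TG array singly against the C57BL/6 mean. The deposited median climbs from -0.21 in the dimmest bin to 0.42 in the brightest, and is flatter after quantile normalization, from -0.04 to 0.17.

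Brighter genes tended to be higher in KDM1A TG embryos and the dimmest genes lower. The median log2 change over all genes was 0.18, with quartiles of -0.15 and 0.47, and 64.9% of genes had a change above 0. With genes ordered by level in 10 equal bins, 26.7% of the dimmest bin and 83.8% of the brightest were above 0. KDM1A TG replicate 2 followed the same slope with smaller steps, reaching a median of 0.22 in the brightest bin where replicates 1 and 3 reached 0.58 and 0.52. Quantile normalization brought the median of all genes to 0.09 and the share above 0 to 59.5%, cyclic loess brought the median to 0.07, and centring each array on its median brought it to 0.25. Changes of gene groups are therefore set beside those of all genes, and the part of array scaling in them was not tested beyond these alternatives. In pooled RNA, fewer cells of a type and less RNA per cell cannot be told apart.

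At an adjusted p under 0.05 by limma with Benjamini-Hochberg adjustment over 11444 genes, 83 genes (0.725%) were called, 75 (0.655%) higher and 8 (0.0699%) lower in KDM1A TG embryos. These shares are the background for the counts of called members given for each list below. An unadjusted p under 0.05 was met by 14.2% of genes, 12.1% on the higher side and 2.1% on the lower. Every called rise was at least 1.24 on the log2 scale, with a median of 1.41. The 3 arrays of each group did not overlap for 19.8% of all genes, 14.5% with KDM1A TG higher and 5.34% with it lower, and for 75 of the 83 called genes.

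Among the called genes, 6 passed whichever of the 8 arrays was left out: Car3, Jam2, Ap1s3, the small nucleolar RNA genes Snord15a and Rnu3a, and the microRNA gene Mir365-1. The same 6 also passed when the mean level of 49 oviduct and cilia markers was entered as a covariate. After quantile normalization or cyclic loess 5 of the 6 passed, and Ap1s3 did not (adjusted p = 0.181 after quantile normalization). These were picked out after their values were seen, and they are described first.

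Car3 encodes a cytosolic carbonic anhydrase that is abundant in fat, muscle and liver. Its log2 levels were 4.05, 3.33 and 4.23 in C57BL/6 replicates 1 to 3 and 7.08, 5.93 and 6.20 in KDM1A TG replicates 1 to 3. Every KDM1A TG array thus lay above every C57BL/6 array by more than 1 log2 unit, with replicate 1 the brightest. The rise was 5.79-fold (95% interval 3.57 to 9.39, adjusted p = 3.1e-06), and a second Car3 probeset rose by 1.71 on the log2 scale (unadjusted p = 2.28e-06). Leaving out single arrays moved the log2 change between 2.20 and 2.77. Other carbonic anhydrases did not pass: the change was 1.43 for the widespread cytosolic Car2 (adjusted p = 0.0534) and 1.32 for the mitochondrial Car5b (adjusted p = 0.0513).

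Jam2 encodes a junctional adhesion molecule of epithelial and endothelial contacts. Its log2 levels were 4.99, 5.54 and 4.90 in the C57BL/6 arrays and 6.67, 6.88 and 7.79 in the KDM1A TG arrays, with replicate 3 highest and no overlap. The rise was 3.91-fold (95% interval 2.48 to 6.17, adjusted p = 0.000207). The paralogs Jam3 and F11r, the latter encoding JAM-A, missed the threshold with log2 changes of 0.81 and 0.87 (adjusted p = 0.264 and 0.227). Ap1s3 encodes a small subunit of the AP-1 clathrin adaptor, which sorts cargo between the trans-Golgi network and endosomes. It stood at 4.26, 4.94 and 4.33 in C57BL/6 and at 6.13, 6.31 and 6.09 in KDM1A TG embryos. That was the tightest of the 6 genes within the transgenic group (SD 0.12, n = 3), and the rise was 3.18-fold (95% interval 2.01 to 5.05, adjusted p = 0.00368). Its paralogs Ap1s1 and Ap1s2 missed it too, at 0.36 and 0.74 (adjusted p = 0.585 and 0.301).

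**Figure D2:**
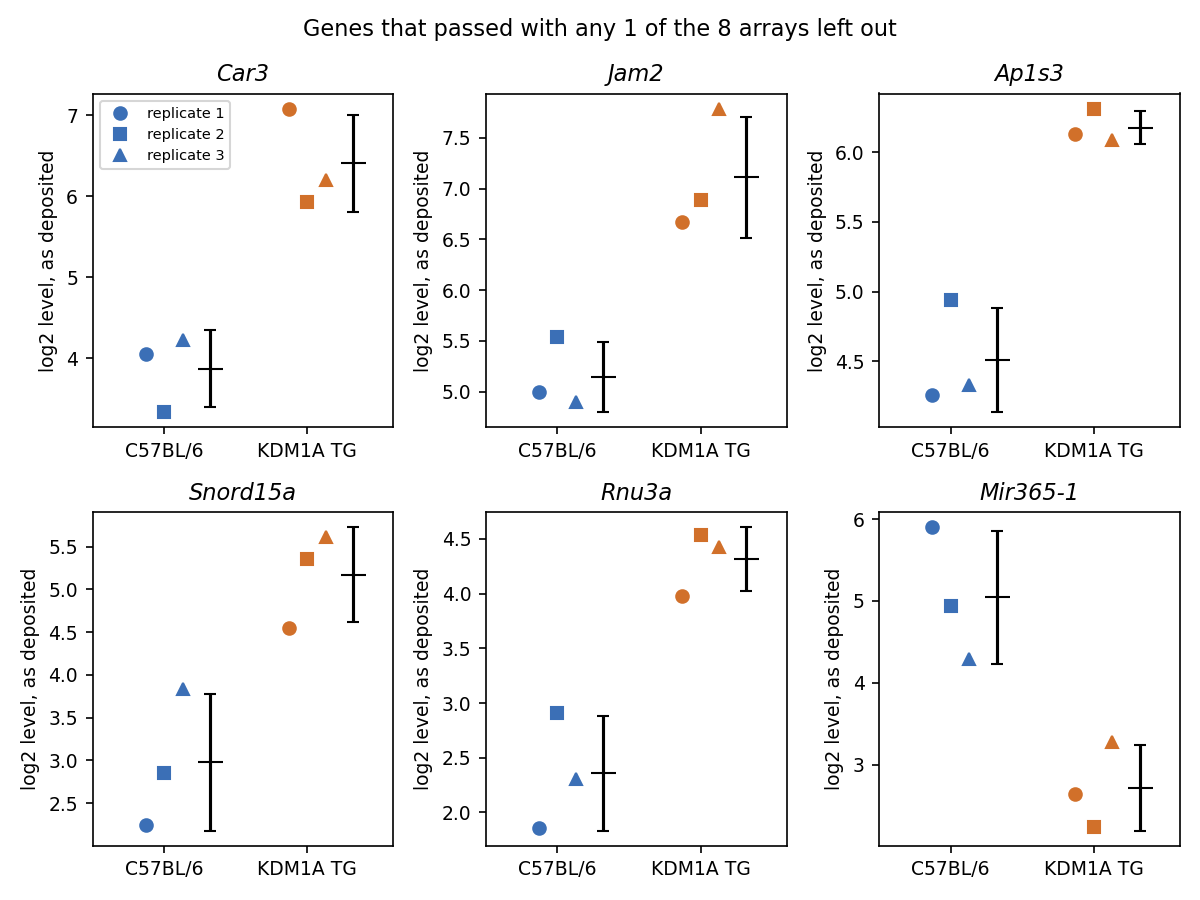
Deposited log2 level of 6 genes on each C57BL/6 (blue) and KDM1A TG (orange) array, with marker shape giving the replicate and black bars the mean and SD (n = 3). In each panel the groups do not overlap: Car3, Jam2, Ap1s3, Snord15a and Rnu3a lie higher in KDM1A TG embryos and Mir365-1 lower.

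Mir365-1 showed the deepest fall of any gene tested. Its hairpin and mature arms are printed because they define the gene the probeset is named for; RefSeq places the hairpin at chr16:13453840-13453926 on the plus strand of GRCm38.p6. Capitals mark the mature arms in the hairpin and the seed (bases 2 to 8) in each mature sequence.
Mir365-1 hairpin: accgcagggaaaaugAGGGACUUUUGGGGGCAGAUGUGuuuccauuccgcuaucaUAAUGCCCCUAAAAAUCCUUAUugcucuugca
miR-365-1-5p: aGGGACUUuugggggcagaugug
miR-365-3p: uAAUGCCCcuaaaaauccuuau
The log2 levels of Mir365-1 were 5.90, 4.94 and 4.29 in C57BL/6 replicates 1 to 3 and 2.63, 2.24 and 3.27 in KDM1A TG replicates 1 to 3. Every transgenic array lay below every control array. The log2 change was -2.33 (SE 0.35, adjusted p = 2.19e-05), a 5.02-fold lower level (95% interval 3.09 to 8.14). The change ran from -2.70 to -1.90 over the fits that left out 1 array and was -2.44 after quantile normalization. Mir193b, which lies in the same genomic cluster, was near the minimum level, with a mean of 2.25 in C57BL/6 embryos and a log2 change of 0.34 (adjusted p = 0.617). Probesets of this kind do not separate a precursor from its mature product.

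Other microRNA genes lay lower as a group, at a smaller size. Of 132 precursor genes tested, 2 were called lower (0.0699% of all genes) and 0 higher, and 23 had a change above 0 (64.9% of all genes). The median change was -0.37, against 0.18 for all genes. After quantile normalization these medians were -0.34 and 0.09. The arrays did not overlap, with KDM1A TG lower, for 22 of the 132 (5.34% of all genes). The list's mean level was 3.81, 3.82 and 3.63 in C57BL/6 replicates 1 to 3 and 3.37, 3.57 and 3.27 in KDM1A TG replicates 1 to 3, so the groups did not overlap. Olfactory and vomeronasal receptor genes, which are near-silent outside sensory epithelium, moved alike: 32 of 229 were above 0 and their median was -0.37 (-0.27 after quantile normalization).

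Mir1191 was the second microRNA gene called. Its mature product and that of the next-ranked Mir1932 are shown, with the 3 Mir680 genes that share 1 seed.
miR-1191a: cAGUCUUAcuauguagcccua
miR-1932: gUUGCGGAcagcgcuaggucgg
miR-680: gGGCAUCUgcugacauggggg
The log2 levels of Mir1191 were 8.39, 6.24 and 6.25 in C57BL/6 and 5.59, 5.95 and 5.07 in KDM1A TG embryos. C57BL/6 replicate 1 stood far above its group, and without it the log2 change of -1.42 (adjusted p = 0.0367) became -0.71 (adjusted p = 0.598). Mir1932 averaged 6.05 in C57BL/6 and 5.05 in KDM1A TG embryos, with arrays that did not overlap and an adjusted p of 0.14. The genes sharing the miR-680 seed had changes of -0.52 for Mir680-1, -0.33 for Mir680-2 and -0.92 for Mir680-3, none of which passed (adjusted p = 0.523, 0.626 and 0.192). Of the 132 precursor genes, at least 100 have a mature sequence in the RefSeq table used, since 1 chromosome was left out of that count.

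Small nucleolar RNAs guide chemical modification and processing of other RNAs, chiefly ribosomal RNA. Snord15a, a box C/D RNA, stood at 2.25, 2.86 and 3.83 in C57BL/6 and at 4.55, 5.35 and 5.62 in KDM1A TG embryos. It rose 4.57-fold (95% interval 2.84 to 7.37, adjusted p = 5.32e-05), with C57BL/6 replicate 3 nearest to the transgenic arrays. Its host gene Rps3, a ribosomal protein gene, missed the threshold at a change of 0.67 (adjusted p = 0.339). Rnu3a, a copy of the U3 RNA needed for processing of the ribosomal RNA precursor, stood at 1.86, 2.91 and 2.31 in C57BL/6 and at 3.98, 4.53 and 4.43 in KDM1A TG embryos. Its rise was 3.88-fold (95% interval 2.43 to 6.18, adjusted p = 0.000326), and a probeset of U3 may also bind other copies of that RNA.

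The wider list of 48 small nucleolar and small nuclear RNA genes had 2 members called higher (0.655% of all genes) and 0 lower. In that list 32 were above 0 (64.9% of all genes) and the median change was 0.28 (0.23 after quantile normalization). Scarna6 and Scarna10, guides for small nuclear RNAs in Cajal bodies, had changes of 1.16 and 1.16 (adjusted p = 0.0604 and 0.0753), and the Y RNA gene Rny3 one of 1.21 (adjusted p = 0.0678). Ribosome biogenesis protein genes had 0 of 44 called, 32 above 0 and a median of 0.25 as deposited, -0.03 after cyclic loess and 0.52 with the covariate, and Nop56, a core protein of box C/D particles, had a change of -1.07 with arrays that did not overlap (adjusted p = 0.0958). Cytosolic ribosomal protein genes had a median of 0.39 (0.20 after quantile normalization), 44 of 50 above 0 and 0 called.

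The remaining called genes depended on single arrays. Without KDM1A TG replicate 3, 8 of the 83 called genes passed, without C57BL/6 replicate 3, 19, and without C57BL/6 replicate 1, 26. Besides the 6, Fabp4 and the pseudogene Rps19-ps3 were those that passed without KDM1A TG replicate 3. Of the 75 genes called higher, KDM1A TG replicate 3 held the highest of the 6 values in 56, replicate 1 in 13 and replicate 2 in 6. C57BL/6 replicates 3 and 1 held the lowest in 38 and 33, and replicate 2 in 4. The marker mean used as covariate was 4.95, 5.32 and 4.64 in C57BL/6 replicates 1 to 3 and 5.56, 4.96 and 5.76 in KDM1A TG replicates 1 to 3. With it 8 of the 83 passed, and the called gene Wfdc15b is itself among these markers. Every called gene kept its sign in every setting in which it was tested. Where the arrays of the groups did not overlap, leaving out arrays could not turn the sign, so this is no test of the calls.

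The embryos of nonTG sires lay on the KDM1A TG side of C57BL/6 for most called genes. Of the 75 genes called higher, the nonTG mean was above the C57BL/6 mean in 73, the exceptions being Car3 and Fabp4. The same C57BL/6 arrays chose the 75 genes as low, which favours a nonTG mean above theirs. The share over all genes was not taken. Jam2 averaged 5.14 in C57BL/6, 7.11 in KDM1A TG and 6.57 in nonTG embryos, and Ap1s3 averaged 4.51, 6.18 and 6.49. Mir365-1 averaged 5.04, 2.72 and 2.68 in the same order, so its nonTG level was close to the transgenic one. Snord15a averaged 2.98, 5.17 and 3.81, and Rnu3a also had a nonTG mean between the other groups. For these 5 genes KDM1A TG embryos were not called different from nonTG embryos (adjusted p = 0.281 to 0.989), in a comparison that uses the same KDM1A TG arrays.

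**Figure D3:**
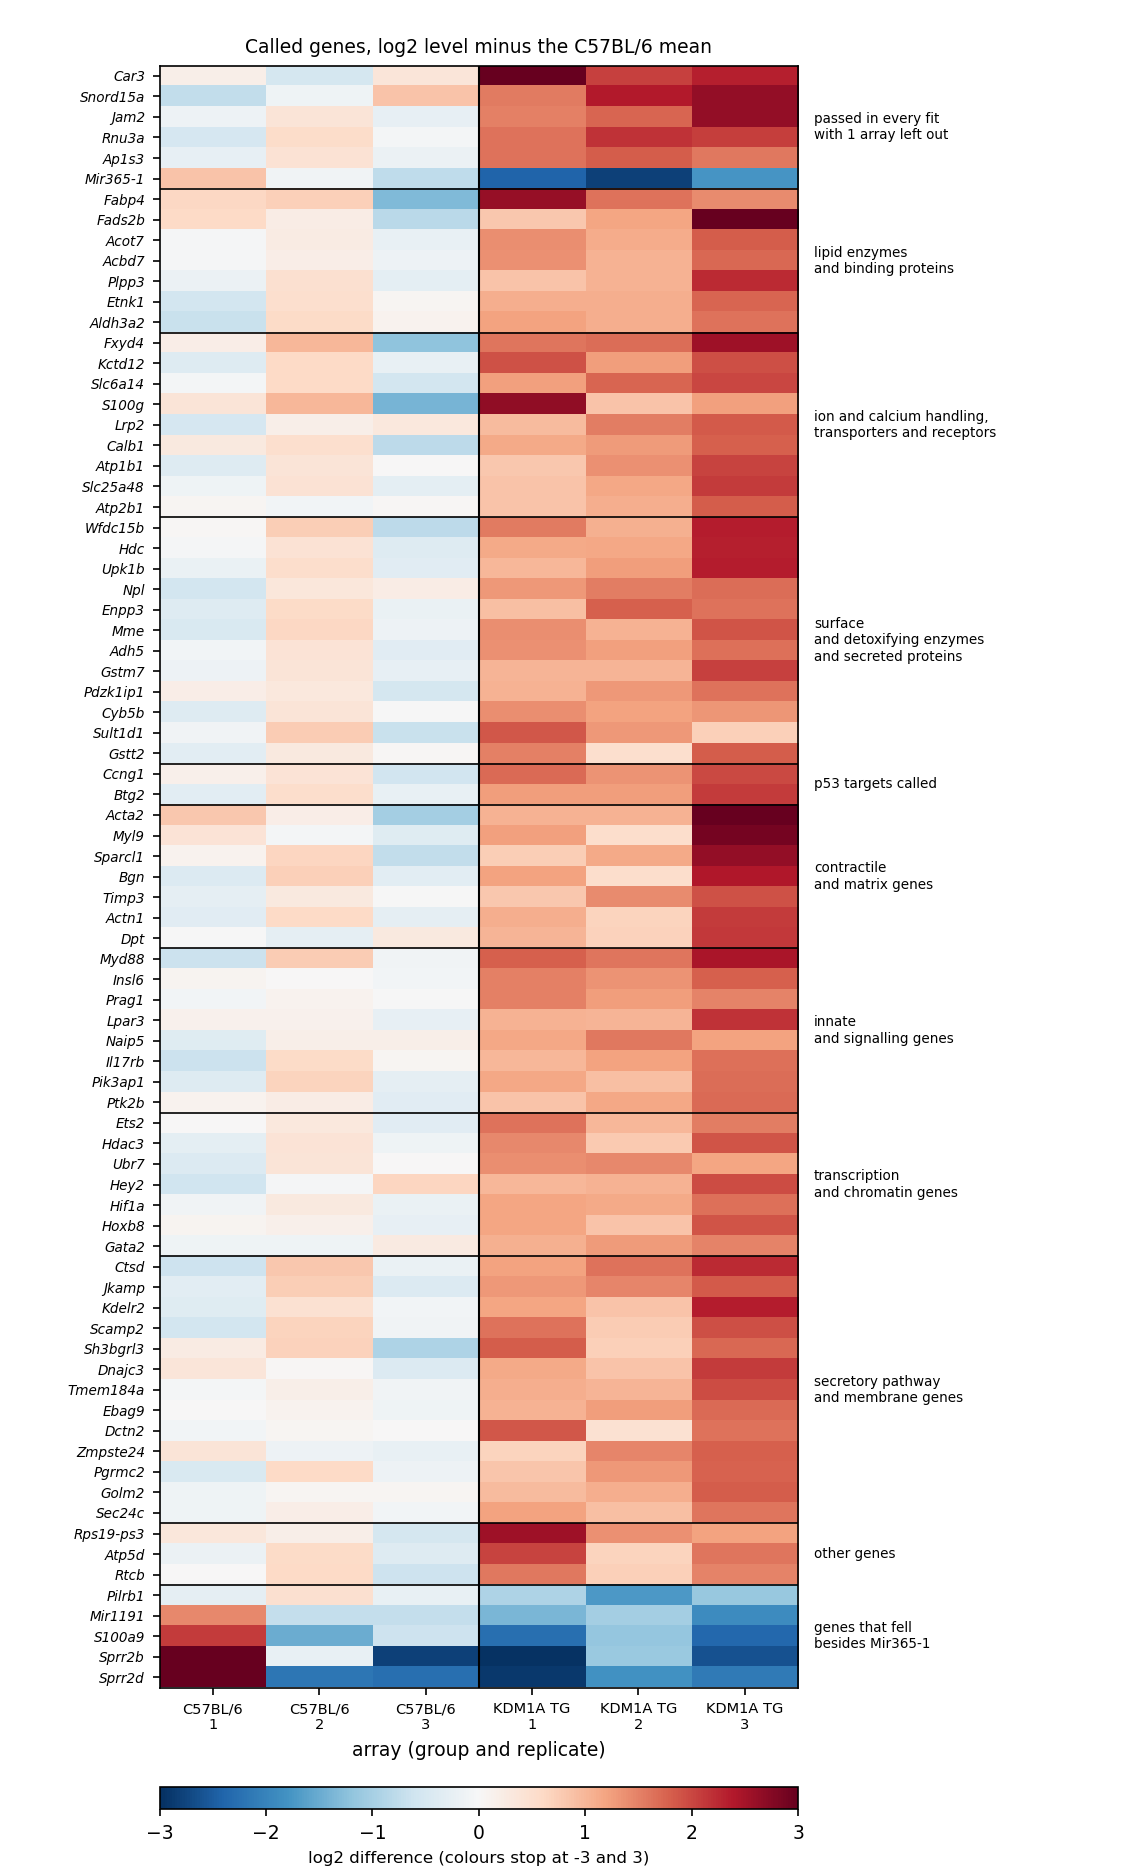
Log2 level of 79 called genes on each of the 6 arrays minus the C57BL/6 mean of that gene, in groups by function; red is higher and blue lower, and colours stop at -3 and 3. KDM1A TG replicate 3 is the reddest column in most groups, above all for contractile and matrix genes, and C57BL/6 replicate 1 alone is strongly red for Sprr2b, Sprr2d, S100a9 and Mir1191.

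Among the genes called higher, 7 act on lipids, a grouping made after the calls were seen: Fabp4, which carries fatty acids in adipocytes and macrophages, Fads2b of the fatty acid desaturase family, the acyl-CoA thioesterase Acot7, the acyl-CoA binding Acbd7, the lipid phosphatase Plpp3, the fatty aldehyde dehydrogenase Aldh3a2 and the ethanolamine kinase Etnk1. Their log2 changes ran from 1.31 to 1.88 (adjusted p = 0.00221 to 0.0357). Of the 7, 1 passed without KDM1A TG replicate 3, 0 without C57BL/6 replicate 3 (adjusted p = 0.0862 to 0.154) and 0 with the covariate. Fabp4 stood at 4.56, 4.66 and 2.62 in C57BL/6 replicates 1 to 3 and at 6.57, 5.57 and 5.36 in KDM1A TG replicates 1 to 3. The groups did not overlap, but C57BL/6 replicate 3 was about 2 log2 units below its group, and without it the change was 1.22 (adjusted p = 0.143). In the arrays of nonTG sires Fabp4 averaged 2.01 and Car3 2.95, lower than in C57BL/6 embryos (3.95 and 3.87). Of the 83 called genes, Car3 and Fabp4 were the 2 also called against nonTG embryos, with log2 differences of 3.46 and 3.82 (adjusted p = 1.26e-09 and 1.76e-10), where 0.0437% of all genes were called; both comparisons use the same KDM1A TG arrays.

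Defining fat cell markers were low or did not pass. Of 25 adipocyte and fatty acid storage genes tested, Car3 and Fabp4 were called, where 0.655% of all genes were called higher. Of the 25, 22 were above 0 (64.9% of all genes) and the median was 0.41 under both the deposited and the quantile scale. The lowest change among the 25 was -1.40, with 0 called lower. Adipoq, which defines adipocytes, lay between 1.97 and 2.97 on the 6 arrays, around the minimum level, with overlapping groups. The lipid droplet coat gene Plin1 had a change of -0.55 (adjusted p = 0.422), and Cidea, a lipid droplet protein of brown fat, one of 1.19 with arrays that did not overlap (adjusted p = 0.0565). Among 28 cholesterol and fatty acid synthesis genes, Fads2b was called, 22 were above 0 and the median was 0.34; Fasn and Fads2, the fatty acid synthase and the delta-6 desaturase, had changes of 1.17 and 1.20 (adjusted p = 0.0606 and 0.074). Fads2b was 7.61 in KDM1A TG replicate 3 against 5.25 and 5.63 in the other transgenic arrays, and without replicate 3 its adjusted p was 0.733.

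Ion, calcium and solute handling genes formed the next group, with log2 changes from 1.25 to 1.95 (adjusted p = 0.00135 to 0.0492). Fxyd4, a regulatory subunit of the sodium pump, stood at 7.56, 8.37 and 6.16 in C57BL/6 and at 8.98, 9.04 and 9.90 in KDM1A TG embryos. Atp1b1, the beta subunit of that pump, which the embryo later needs to form the blastocoel, stood at 5.16, 5.92 and 5.55 against 6.34, 6.91 and 7.57, a rise of 1.40 (adjusted p = 0.0221). The plasma membrane calcium pump Atp2b1 and the calcium buffers Calb1 and S100g rose by 1.25, 1.41 and 1.58, the last with arrays that overlapped. Slc6a14, an importer of neutral and basic amino acids, rose by 1.66 (adjusted p = 0.00373), and the endocytic receptor Lrp2, the mitochondrial carrier Slc25a48 and Kctd12, which associates with GABA-B receptors, rose by 1.44, 1.37 and 1.70. A second Kctd12 probeset had a change of 0.98. Of these 9 genes, 0 passed without KDM1A TG replicate 3 (adjusted p = 0.107 to 0.736), where their changes were 0.97 to 1.76.

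Genes of the trophectoderm, the outer epithelium of the later blastocyst, lay higher as a list. Of 17 tested, Atp1b1 and the transcription factor Gata2 were called, where 0.655% of all genes were called higher. The median was 0.74, against 0.18 for all genes (0.50 and 0.09 after quantile normalization), and 13 were above 0. Bright genes are the closer background for this list. In the brightest bin of all genes the median was 0.42 (0.17 after quantile normalization) with 83.8% above 0, and in the next bin 0.43 (0.15) with 84.5%. Gata2 stood at 3.89, 3.88 and 4.28 in C57BL/6 and at 5.09, 5.28 and 5.50 in KDM1A TG embryos, 3 arrays against 3 without overlap. The inhibitor of differentiation Id2, the keratin Krt8 and the receptor Fgfr2 had changes of 1.17, 1.06 and 0.93 that did not pass (adjusted p = 0.0637, 0.108 and 0.192). The list's mean level was 4.79, 4.97 and 4.64 in C57BL/6 and 5.45, 5.09 and 5.65 in KDM1A TG embryos. Its median was 0.29 with the oviduct and cilia covariate and 0.28 with KDM1A TG replicate 2 as the only transgenic array. Krt8 belongs to this list and also to the markers of the covariate. The covariate itself was higher in KDM1A TG replicates 1 and 3 (5.56 and 5.76) than in the C57BL/6 arrays (4.64 to 5.32), so it takes up part of any difference between the groups. Oviduct epithelium also expresses keratins, sodium pump subunits and claudins. Its part in this list was not tested, since that covariate shares a member with the list and moves with the groups.

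Cell junction genes had Jam2 called among 24, 19 above 0 and a median of 0.50 (0.24 after quantile normalization). The tight junction gene Cldn3 had a change of 1.24 with arrays that did not overlap (adjusted p = 0.0513). Of 13 ion pump, aquaporin and blastocoel transport genes, Fxyd4 and Atp1b1 were called, 10 were above 0 and the median was 0.34 (0.27 after quantile normalization). Cftr, a chloride channel of that list, had a change of 1.04 (adjusted p = 0.116). Pluripotency and primitive endoderm genes stood near all genes, with a median of 0.13 and 0 of 18 called. Their largest changes were 0.96 for Sox17 and 0.83 for Gata6, both endoderm regulators (adjusted p = 0.18 and 0.246).

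A further 12 called genes encode surface enzymes, detoxifying enzymes and secreted proteins, with log2 rises between 1.28 and 1.66 (adjusted p = 0.00511 to 0.0471). They comprise the peptidase Mme, the ectonucleotidase Enpp3, the sialic acid lyase Npl, the protease inhibitor-like Wfdc15b, the uroplakin Upk1b, the sulfotransferase Sult1d1, the glutathione transferases Gstm7 and Gstt2, the histamine-forming Hdc, the formaldehyde-clearing Adh5, the mitochondrial cytochrome Cyb5b and the membrane protein Pdzk1ip1. Hdc stood at 5.28, 5.74 and 4.93 in C57BL/6 and at 6.44, 6.47 and 7.64 in KDM1A TG embryos. Wfdc15b stood at 5.76, 6.45 and 4.94 against 7.27, 6.79 and 8.07. For both, KDM1A TG replicate 3 was the highest array and C57BL/6 replicate 3 the lowest. Without KDM1A TG replicate 3, 0 of the 12 passed, with changes of 1.01 to 1.58 (adjusted p = 0.107 to 0.708). Of the 12, 11 had arrays that did not overlap, Sult1d1 being the exception.

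Markers of oviduct epithelium moved with the same arrays. Of 24 secretory epithelium markers tested, Wfdc15b was called, 20 were above 0 and the median was 0.49 (0.30 after quantile normalization). Wfdc2, another protease inhibitor-like protein, had a change of 1.09 with arrays that did not overlap (adjusted p = 0.0967). The lowest change among the 24 was -0.90. Their mean level was 5.34, 5.64 and 4.70 in C57BL/6 and 5.64, 5.30 and 6.15 in KDM1A TG embryos, so replicate 2 of the transgenic group lay below C57BL/6 replicates 1 and 2. Of 25 motile cilia markers 0 were called, 24 were above 0, and the median was 0.47 (0.24 after quantile normalization). In the brightest bin of all genes 83.8% were above 0, with a median of 0.42. Foxj1, the master regulator of motile cilia, stood at 4.62, 5.45 and 4.82 against 6.29, 5.40 and 5.82, with overlapping groups (change 0.87, adjusted p = 0.214). With KDM1A TG replicate 2 as the only transgenic array the cilia median was -0.13 and the secretory median 0.05.

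Contractile and matrix genes rose on 1 array above all. The smooth muscle actin Acta2 stood at 5.52, 4.90 and 3.70 in C57BL/6 and at 5.76, 5.75 and 7.88 in KDM1A TG embryos, and the myosin light chain Myl9 at 4.75, 4.28 and 3.97 against 5.57, 4.85 and 7.20. In both, KDM1A TG replicate 3 stood far above the other transgenic arrays, and the lowest transgenic array was close to the highest C57BL/6 array. Acta2, Myl9, the actin crosslinker Actn1, the metalloprotease inhibitor Timp3, the proteoglycan Bgn and the matrix proteins Dpt and Sparcl1 had rises of 1.28 to 1.75 (adjusted p = 0.0155 to 0.0471). Without KDM1A TG replicate 3 their changes were 0.86 to 1.11 and 0 of 7 passed (adjusted p = 0.507 to 0.815), nor did any without C57BL/6 replicate 3 (adjusted p = 0.0816 to 0.288). Of 20 smooth muscle markers 3 were called, 19 were above 0 and the median was 0.50 (0.20 without KDM1A TG replicate 3), and the calponin Cnn1 and transgelin Tagln had changes of 1.25 and 1.25 (adjusted p = 0.0993 and 0.0583). Of 25 fibroblast and matrix markers 3 were called, 24 were above 0 and the median was 0.78 (0.48 without KDM1A TG replicate 3). The collagen Col1a1 and the matrix protein Mgp had changes of 1.33 and 1.30 (adjusted p = 0.107 and 0.0735). Over all genes 0.655% were called higher and 64.9% were above 0, and in the brightest bin by level 83.8% were above 0.

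Many smooth muscle genes carry CArG boxes, the sites of serum response factor. The 250 bases before the start of Acta2 (chr19:34255374-34255623, minus strand) and Myl9 (chr2:156775214-156775463, plus strand), from RefSeq on GRCm38.p6, are printed because these 2 moved together, with matches to the CArG box with up to 1 mismatch, on either strand, in capitals.
Acta2: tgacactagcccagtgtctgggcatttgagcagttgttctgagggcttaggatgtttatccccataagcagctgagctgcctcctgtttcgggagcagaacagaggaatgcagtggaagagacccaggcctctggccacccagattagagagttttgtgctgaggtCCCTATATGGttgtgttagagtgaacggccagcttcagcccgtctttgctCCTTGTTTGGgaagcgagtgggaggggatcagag
Myl9: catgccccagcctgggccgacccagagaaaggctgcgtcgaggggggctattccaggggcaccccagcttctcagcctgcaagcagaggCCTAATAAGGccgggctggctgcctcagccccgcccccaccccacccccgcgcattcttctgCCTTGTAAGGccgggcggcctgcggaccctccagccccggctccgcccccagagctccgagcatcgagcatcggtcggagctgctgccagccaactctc
Each window held 2 matches, and 1 of the Myl9 matches had no mismatch. The windows of Actn1, also called, and of Csrp1, the next smooth muscle gene by p, held 0 matches. A match with up to 1 mismatch occurred in 7 of 17 listed smooth muscle genes with a promoter and in 21.1% of 27025 genes, and one with no mismatch in 1 of 17 and in 1.6%. A match describes letters in the window, not binding.

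The p53 targets Ccng1 and Btg2 were called among 25 genes of that list, where 0.655% of all genes were called higher. Ccng1, encoding cyclin G1, stood at 5.33, 5.60 and 4.61 in C57BL/6 and at 6.88, 6.53 and 7.17 in KDM1A TG embryos, a 3.20-fold rise (95% interval 2.03 to 5.05, adjusted p = 0.00297). Btg2, an antiproliferative factor that promotes mRNA deadenylation, stood at 3.36, 4.22 and 3.46 against 4.93, 4.94 and 5.78, a 2.90-fold rise (95% interval 1.84 to 4.58, adjusted p = 0.00834). For both the groups did not overlap, and without KDM1A TG replicate 3 neither passed (adjusted p = 0.107 and 0.341), nor without C57BL/6 replicate 3 (adjusted p = 0.0714 for both). The list as a whole stood near all genes, with 21 of 25 above 0 and a median of 0.21 (0.16 after quantile normalization). Its mean level was 3.94, 3.86 and 3.90 in C57BL/6 and 4.24, 4.17 and 4.32 in KDM1A TG embryos, without overlap. That does not set it apart, since the mean levels of spliceosome, apoptosis, glycolysis and KDM1A partner genes did not overlap either. Mdm2, the ubiquitin ligase that restrains p53, and Ddit4, an inhibitor of mTORC1, missed the threshold at changes of 0.61 and 0.85 (adjusted p = 0.377 and 0.246).

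The 250 bases before the start of Ccng1 (chr11:40755287-40755536, minus strand, RefSeq, GRCm38.p6) are shown because they hold a match to the p53 site. The match, in capitals, is made of 2 adjacent half-sites with 1 mismatch.
Ccng1: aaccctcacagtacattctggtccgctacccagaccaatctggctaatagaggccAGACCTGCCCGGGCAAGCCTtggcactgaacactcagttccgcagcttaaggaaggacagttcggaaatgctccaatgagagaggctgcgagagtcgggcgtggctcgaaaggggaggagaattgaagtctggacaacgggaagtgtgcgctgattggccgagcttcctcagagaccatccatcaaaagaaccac
With up to 2 mismatches on either strand, such a site occurred in this window in 3 of 20 listed p53 targets, Ccng1, Cdkn1a and Ckap2, and in 0.8% of 27025 genes. A half-site with no mismatch occurred in 7 of 20 and in 8.2%. The window of Btg2 held no match to the full site. A match describes letters in the window, not binding, and its share among known p53 targets is no result of these arrays.

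Among innate and signalling genes 8 were called. Myd88, the adaptor of Toll-like and interleukin-1 receptors, stood at 3.85, 5.25 and 4.38 in C57BL/6 and at 6.29, 6.10 and 6.94 in KDM1A TG embryos, a 3.85-fold rise (95% interval 2.36 to 6.29, adjusted p = 0.000961). Insl6, a relaxin-family peptide known from the testis, averaged 3.09 ± 0.08 (SD, n = 3) in C57BL/6 embryos and stood at 4.61, 4.44 and 4.89 in KDM1A TG embryos, without overlap and with a change of 1.55 (adjusted p = 0.00642). Both passed in 7 of the 8 fits with 1 array left out, failing without KDM1A TG replicate 3 (adjusted p = 0.0947 and 0.167). The inflammasome sensor Naip5, the interleukin-17 receptor Il17rb, the PI3-kinase adaptor Pik3ap1, the tyrosine kinase Ptk2b, the lysophosphatidic acid receptor Lpar3 and the pseudokinase Prag1 rose by 1.24 to 1.42. The wider list of innate sensing and NF-kB genes had Myd88 alone called among 28, 20 above 0 and a median of 0.48 (0.42 after quantile normalization). Irak1 and Ticam1, kinase and adaptor of the same receptors, had changes of 0.96 and 0.84, and the receptor Tlr6 one of -0.80 (adjusted p = 0.202, 0.236 and 0.259). Interferon response genes had 0 of 23 called, 16 above 0 and a median of 0.32.

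The lower side held few protein-coding genes, and C57BL/6 replicate 1 set most of them. The cornified envelope gene Sprr2d stood at 9.24, 2.64 and 2.53 in C57BL/6 and at 1.90, 2.98 and 2.67 in KDM1A TG embryos, and Sprr2b, which is highly similar in sequence, at 10.05, 6.81 and 4.22 against 4.06, 5.91 and 4.42. The groups overlapped for both, and without C57BL/6 replicate 1 the changes of -2.28 and -2.23 (adjusted p = 0.0491 and 0.0492) became -0.07 and -0.72. S100a9 and S100a8, which form calprotectin in neutrophils and stressed epithelium, had changes of -1.92 (adjusted p = 0.0111) and -1.80 (adjusted p = 0.0513). S100a8 stood at 7.49, 3.76 and 4.24 in C57BL/6 replicates 1 to 3; S100a9 fell by 0.87 without that replicate (adjusted p = 0.526). Myeloid and neutrophil markers had 2 of 21 called lower (0.0699% of all genes), 12 above 0 and a median of 0.15 (-0.26 with the covariate). Lyz2, a macrophage and neutrophil lysozyme, had a change of 0.14 (adjusted p = 0.845).

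Pilrb1, an activating immunoglobulin-like receptor, stood at 2.66, 3.39 and 2.70 in C57BL/6 and at 2.00, 1.19 and 1.77 in KDM1A TG embryos. Its arrays did not overlap, its change was -1.26 (adjusted p = 0.0405), and its transgenic mean of 1.65 lay under the minimum level of 2.07. It passed with the covariate (adjusted p = 0.0198) but lost its call when any 1 of the 6 arrays of the compared groups was left out (adjusted p of at most 0.291). Below the threshold with arrays that did not overlap, the cornified envelope gene Lce1h had a change of -1.18 (adjusted p = 0.0526) and the mitotic kinase Aurkb one of -1.01 (adjusted p = 0.147). Skin and cornified envelope genes had 4 of 15 above 0 and a median of -0.33 (-0.28 after quantile normalization).

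Among regulators of transcription, the deacetylase Hdac3, the ETS factor Ets2, the hypoxia factor Hif1a, the Notch target Hey2, the homeobox gene Hoxb8, Gata2 and the ubiquitin ligase Ubr7 were higher by log2 changes of 1.28 to 1.38 (adjusted p = 0.0207 to 0.0418), all without overlap between groups. Hdac3 stood at 3.38, 4.08 and 3.54 in C57BL/6 and at 5.11, 4.46 and 5.56 in KDM1A TG embryos. Hif1a stood at 5.68, 6.06 and 5.58 against 6.96, 6.91 and 7.43, while a second Hif1a probeset had a change of 0.57 (unadjusted p = 0.0935). Without KDM1A TG replicate 3 none of the 7 passed (adjusted p = 0.202 to 0.71), at changes of 1.01 to 1.42. The families of Hoxb8 and Hey2 did not follow: 1 of 18 Hox genes and 1 of 24 Notch pathway genes were called, with medians of 0.18 and 0.06.

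Lists of KDM1A partners and of other chromatin genes had 0 members called, where 0.725% of all genes were, so that these counts do not set them apart. Of 24 KDM1A partner genes 0 were called, 17 were above 0, and the median was 0.24 as deposited and -0.02 after cyclic loess. As in other lists, their mean levels did not overlap (4.58, 4.57 and 4.70 in C57BL/6, 4.75, 4.83 and 5.00 in KDM1A TG). Rbbp4, a histone-binding subunit of deacetylase complexes, and the orphan receptor Nr2c1 had the smallest p among them, with changes of 0.89 and 0.86 (adjusted p = 0.195 and 0.203). Histone lysine demethylases had 0 of 13 called and a median of 0.20 that turned to -0.05 after cyclic loess, and Kdm4a, an H3K9 and H3K36 demethylase, had a change of 0.64 (adjusted p = 0.358). H3K4 methyltransferase subunits had 0 of 23 called, 20 above 0 and a median of 0.19 (0.02 after quantile normalization and near 0 after cyclic loess); the menin gene Men1 and Kmt2e had changes of 0.98 and 0.97 (adjusted p = 0.141 and 0.181). Polycomb and H3K9 methylation genes had 0 of 26 called and a median of 0.11 as deposited and -0.05 after quantile normalization, and Cbx5, encoding heterochromatin protein HP1-alpha, had a change of 0.83 (adjusted p = 0.236). DNA methylation genes had 0 of 15 called and a median of 0.20.

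Secretory pathway and membrane genes were 13 of those called. They had rises of 1.24 to 1.68 (adjusted p = 0.00405 to 0.0405), none with overlapping arrays. They include the lysosomal protease Ctsd, the chaperone Dnajc3 that inhibits the kinases PERK and PKR, the retrieval receptor Kdelr2, the COPII coat subunit Sec24c, the dynactin subunit Dctn2 and Zmpste24, the protease that matures lamin A. The others are Jkamp, Scamp2, Golm2, Ebag9, Tmem184a, Pgrmc2 and Sh3bgrl3. Ctsd stood at 6.23, 7.67 and 6.65 in C57BL/6 and at 8.05, 8.48 and 9.08 in KDM1A TG embryos. Dnajc3 stood at 5.37, 5.04 and 4.59 against 6.13, 5.85 and 7.09. Without KDM1A TG replicate 3, 0 of 13 passed, at changes of 0.99 to 1.41 (adjusted p = 0.233 to 0.699).

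Stress and degradation lists had most members above 0, as other bright genes did, and few called. All 35 unfolded protein and integrated stress genes were above 0, with Dnajc3 called and a median of 0.54 (0.34 after quantile normalization), and Edem1 and Pdia6, which act in disposal and folding of glycoproteins, had changes of 0.88 and 0.87 (adjusted p = 0.199 and 0.238). All 29 oxidative stress genes were above 0 with 0 called and a median of 0.59 (0.37); the mitochondrial peroxiredoxin Prdx3 and the glutathione transferase Gstp1 had changes of 1.02 and 1.04 (adjusted p = 0.123 and 0.148). Lysosome and autophagy genes had 31 of 32 above 0, Ctsd called and a median of 0.55 (0.34), with 1.05 for the protease Ctsb (adjusted p = 0.116). Cytosolic heat shock genes had 29 of 31 above 0 and a median of 0.54 (0.30), and proteasome genes 31 of 32 and 0.51 (0.28), both with 0 called. Over all genes 64.9% were above 0, but these lists are bright: in the 3 brightest bins of genes by level, 83.8% to 85.6% were above 0 and the medians were 0.39 to 0.43. The mean level of the unfolded protein list was 4.69, 4.69 and 4.83 in C57BL/6 and 5.11, 4.99 and 5.66 in KDM1A TG embryos, without overlap, whereas the oxidative stress list overlapped (5.29, 5.69 and 5.06 against 6.04, 5.48 and 6.16).

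Mitochondrial energy genes followed the same arrays. All 30 complex I genes and all 24 citrate cycle and pyruvate genes were above 0, with medians of 0.60 and 0.63 (0.41 and 0.40 after quantile normalization) and 0 called. Fatty acid oxidation genes had 23 of 26 above 0, 0 called and a median of 0.63 (0.42). In the brightest bin of all genes 83.8% were above 0 and the median was 0.42 (0.17). Sdha, shared by the citrate cycle and complex II, stood at 4.90, 5.45 and 5.05 in C57BL/6 and at 6.17, 6.01 and 6.69 in KDM1A TG embryos without overlap (change 1.16, adjusted p = 0.0593). Pyruvate carboxylase, Pcx, had a change of 1.17 and Cpt1a, which admits fatty acids to the mitochondrion, one of 1.03 (adjusted p = 0.0778 and 0.147). Among 17 ATP synthase genes the delta subunit Atp5d was called (5.13, 5.89 and 4.93 against 7.34, 5.98 and 6.93), and its second probeset had a change of 0.71 (unadjusted p = 0.0349). The complex I list averaged 5.71, 6.14 and 5.35 in C57BL/6 and 6.63, 5.92 and 6.49 in KDM1A TG embryos, so KDM1A TG replicate 2 lay below C57BL/6 replicate 2. With replicate 2 as the only transgenic array the complex I median was 0.26, the citrate cycle median 0.32 and that of all genes 0.07.

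**Figure D4:**
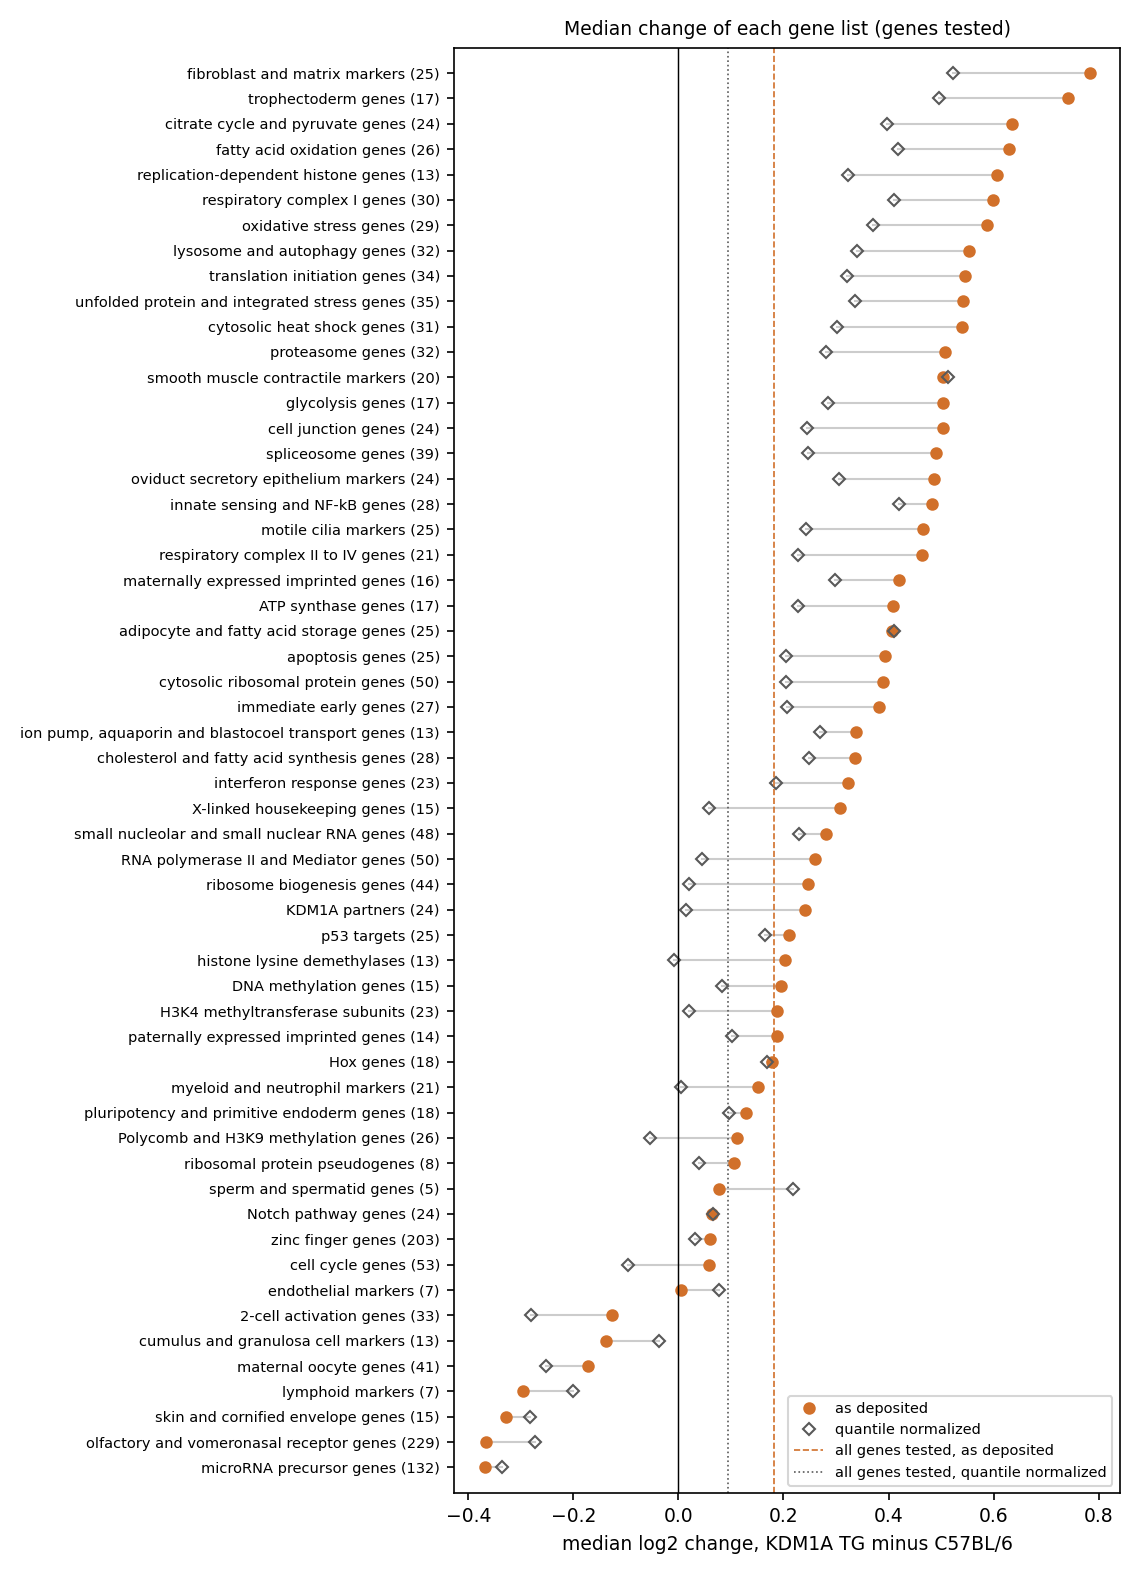
Median log2 change (KDM1A TG minus C57BL/6) of each gene list with at least 5 genes tested, as deposited (filled) and after quantile normalization (open), with dashed and dotted lines at the medians of all genes (0.18 and 0.09) and the number of genes tested in brackets. As deposited, fibroblast and matrix markers (0.78) and trophectoderm genes (0.74) stand highest and microRNA precursor and olfactory receptor genes lowest (both -0.37); after quantile normalization smooth muscle markers (0.51) pass trophectoderm genes (0.50), and skin and 2-cell genes (both -0.28) lie below olfactory receptors (-0.27).

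Maternal and embryonic transcripts of the 2-cell stage did not separate the groups. Of 41 maternal oocyte genes 0 were called, 12 were above 0 and the median was -0.17 (-0.25 after quantile normalization). Of 33 genes of 2-cell activation 0 were called, 15 were above 0 and the median was -0.13 (-0.28 after quantile normalization). The maternal list averaged 4.56, 3.97 and 4.55 in C57BL/6 and 3.94, 4.63 and 4.07 in KDM1A TG embryos, and the 2-cell list 4.98, 4.22 and 4.73 against 4.38, 4.96 and 4.58. Replicate 2 was the lowest control and replicate 2 the highest transgenic array in both lists, and the groups overlapped. With replicate 2 as the only transgenic array the medians were 0.25 and 0.40, with the oviduct and cilia covariate 0.27 and 0.40, and the 2-cell median was also above 0 without KDM1A TG replicate 1 (0.10), KDM1A TG replicate 3 (0.03) or C57BL/6 replicate 3 (0.01). Zscan4a, a marker of 2-cell activation, had a change of 0.91 with arrays that did not overlap, and the deubiquitinase gene Usp17lc one of -0.82 with overlapping arrays (adjusted p = 0.253 and 0.255).

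**Figure D5:**
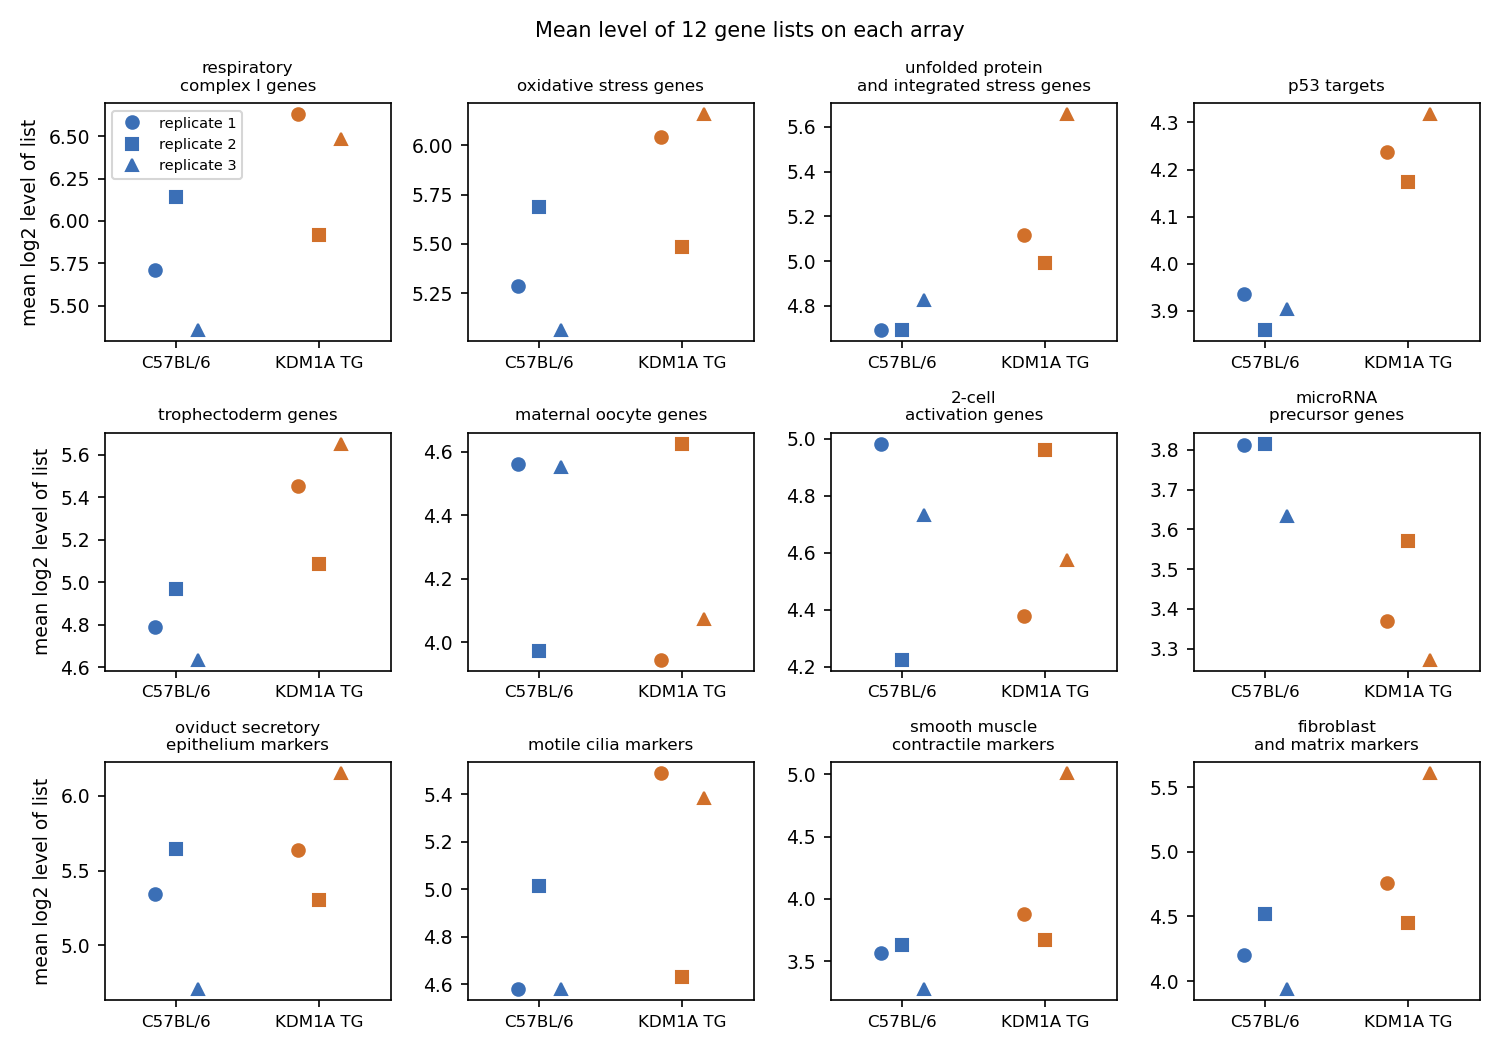
Mean log2 level of 12 gene lists on each C57BL/6 (blue) and KDM1A TG (orange) array, with marker shape giving the replicate; each panel has its own scale. The groups are apart for p53 targets, unfolded protein genes, trophectoderm genes, microRNA precursors and, narrowly, smooth muscle markers (3.63 against 3.67). For smooth muscle markers, KDM1A TG replicate 3 alone is far above the rest (5.01 against 3.27 to 3.88).

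Growth and gene expression lists were mixed. Spliceosome genes had 37 of 39 above 0, 0 called and a median of 0.49 (0.25 after quantile normalization), with changes of 1.03 for the helicase Ddx5 and 0.97 for Prpf8 (adjusted p = 0.145 and 0.147). Translation initiation genes had 33 of 34 above 0, 0 called and a median of 0.55 (0.32), and Eif2b2, a subunit of the exchange factor for eIF2, had a change of 1.18 (adjusted p = 0.0536). Cell cycle genes had 31 of 53 above 0, 0 called and a median of 0.06 that turned to -0.10 after quantile normalization. Within them the D-type cyclins Ccnd2 and Ccnd1 had changes of 1.20 and 1.16 with arrays that did not overlap (adjusted p = 0.0536 and 0.0719).

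Of other cell types a flushed pool could hold, few markers were measured. Cumulus and granulosa cell markers had 0 of 13 called and a median of -0.14, endothelial markers 0 of 7 and 0.01, lymphoid markers 0 of 7 and -0.30, and sperm and spermatid genes 0 of 5 and 0.08. Erythroid markers had 0 probesets carrying 1 symbol. Rps19-ps3, a ribosomal protein pseudogene that may share sequence with its parent gene, rose by 1.71 (adjusted p = 0.00431) and passed without KDM1A TG replicate 3 (adjusted p = 0.0118) but not without C57BL/6 replicate 3 (0.0862), without KDM1A TG replicate 1 (0.117) or with the covariate (0.279). Rtcb, the tRNA-splicing ligase, rose by 1.26 (adjusted p = 0.0471).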

How the data were processed

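Deposited values were log2 expression per probeset. Per the submitters' processing notes R 3.1.0, oligo, RMA and limma were used; their roles, the background correction and the annotation used are not given. With no detection call deposited, genes were tested when their mean over 8 arrays exceeded 2.07, the 30th percentile over probesets. Of 22961 probesets, 15745 carried 1 symbol, 1320 several and 5896 none in the platform annotation, and 574 genes had several probesets. Values were used as deposited. Limma 3.58.1 (lmFit, eBayes; R 4.3.3) fitted group means to all 8 arrays, which share 1 spread, and the contrast KDM1A TG minus C57BL/6 was taken two-sided, with p adjusted by Benjamini-Hochberg across 11444 genes and a threshold of 0.05. Intervals are 95%. The number of arrays limits the precision.

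The members, gene lists, named genes and alternatives were chosen with earlier results of these data known. Named are all called genes, except 4 with predicted or olfactory receptor symbols, and the members of each list with the smallest p; paralogs, host genes and marker genes were added after values were seen. Replicate numbers do not pair the arrays: deviations of same-numbered arrays from their group means correlated at -0.07, -0.38 and -0.11. The alternatives were other scalings, level filters, probeset rules and limma settings, a marker covariate, a replicate block and each array left out. Tested on simulated data with 200 of 11444 genes changed (10 runs), the fit found 26% of 2-fold changes and 99.5% of 4-fold changes, with a mean of 7.7 false calls. The simulated arrays had independent spread and no differences in scaling, unlike the deposited ones, so these rates need not hold for the deposited data. Printed sequences are RefSeq's, on GRCm38.p6.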

Additional observations from a re-analysis of the deposited data

Results flagged for a closer look

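Probesets with several gene symbols or none took no part in the comparison of named genes. Of 4039 such probesets above the minimum level, 2 passed limma's test when all probesets were tested together (0.0495%), 1 higher and 1 lower in KDM1A TG embryos, and neither carried a symbol. The higher one had a mean log2 level of 3.01 in C57BL/6 and 4.76 in KDM1A TG embryos (change 1.75, adjusted p = 0.0234), and the lower one 4.34 and 2.63 (change -1.70, adjusted p = 0.0483). No gene is named from them.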

How the results depend on the processing

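All 83 called genes kept their sign under every alternative in which they were tested. For genes whose arrays did not overlap, fits with arrays left out could not turn it. The number passing depended on scaling and on single arrays. Against 75 higher and 8 lower, there were 124 and 14 with no level filter, 51 and 2 with the filter at the median, 4 and 1 after quantile normalization or cyclic loess, 142 and 9 with median centring, 114 and 14 with a variance trend and robust fit, 1469 and 225 with array weights, 69 and 4 from the 6 arrays alone, 54 and 3 from the mean of a gene's probesets, 5 and 2 with all probesets tested together, 7 and 6 with the covariate, and 155 and 19 at an adjusted p under 0.10. All 75 and 8 calls of the reported fit exceeded 2-fold. Leaving out 1 array gave 8 (without KDM1A TG replicate 3) to 234 (without C57BL/6 replicate 2) higher and 1 to 20 lower. With KDM1A TG replicates 1 and 3 both left out, 0 were higher and 1 lower, with the spread of the lone transgenic array taken from the other groups. With the replicate number as a block, 69 and 7 passed; the numbers were not shown to pair the arrays. Why scaling and arrays move the counts was not tested. With 3 arrays a group, most 2-fold changes went uncalled in the simulated data.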
